A study of Mus musculus with 7 samples.

Results

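The mitochondrial uncoupling protein genes *Ucp2*, *Ucp3*, *Slc25a27* (UCP4) and *Slc25a14* (UCP5) were examined in the P15 forebrain of mice lacking *Lhx6*. They are 4 of the 47729 genes in the count table, were found by gene symbol, and all 4 passed the filter on low counts that left 19684 genes for testing. The family was chosen by its measured genotype differences in these same libraries, so the genotype values of its members are given as a description, with no test. Controls were heterozygous (*Lhx6*+/-, 4 libraries) and mutants homozygous (*Lhx6*-/-, 3 libraries) for the null allele *Lhx6*tm2Vpa on an F1(C57BL/6 X 129Sv) background, so control animals carried a mutant allele as well. Each library was made from pooled forebrain RNA of 2 animals at postnatal day 15, and the mutation was present in every cell from conception, not in interneurons alone. *Lhx6* encodes the LIM homeodomain factor that cortical interneurons of the medial ganglionic eminence need, and the study used these libraries to ask how the postnatal forebrain differs without it.

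Uncoupling proteins belong to the SLC25 carriers of the inner mitochondrial membrane. UCP1 of brown fat carries protons back into the matrix, so that respiration releases heat in place of driving ATP synthesis. UCP2 is found in many tissues, immune cells and some neurons among them, and has been linked to C4 metabolite export and to lower mitochondrial superoxide, while UCP3 is best known from skeletal muscle and brown fat, and UCP4 and UCP5 from neurons.

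*Ucp3* and *Ucp2* are neighbours in tandem on chromosome 7, with 6904 bp between them, and their start regions are shown because these adjacent genes differed in both their level and their genotype values. The RefSeq start regions (GRCm38.p6, plus strand, 250 bases before to 50 bases after the annotated start) lie at chr7:100493108-100493407 for *Ucp2* and chr7:100472741-100473040 for *Ucp3*. Capitals mark CCGCCC, the reverse complement of the GC box GGGCGG, in *Ucp2*, and AGGTCA, the core of nuclear receptor response elements, in *Ucp3*.
Ucp2: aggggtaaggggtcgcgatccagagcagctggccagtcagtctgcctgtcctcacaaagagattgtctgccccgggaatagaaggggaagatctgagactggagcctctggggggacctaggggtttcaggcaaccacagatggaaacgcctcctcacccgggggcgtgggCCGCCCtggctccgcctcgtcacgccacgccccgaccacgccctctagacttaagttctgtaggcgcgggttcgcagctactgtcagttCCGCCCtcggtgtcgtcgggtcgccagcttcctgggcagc
Ucp3: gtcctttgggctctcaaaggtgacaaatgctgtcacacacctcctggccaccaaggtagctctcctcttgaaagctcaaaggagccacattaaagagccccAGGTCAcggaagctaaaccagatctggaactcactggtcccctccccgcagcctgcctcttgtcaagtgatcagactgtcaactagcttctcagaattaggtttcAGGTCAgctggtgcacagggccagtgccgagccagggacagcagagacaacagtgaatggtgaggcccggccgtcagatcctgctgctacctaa
The *Ucp2* region had a GC content of 64.3% with 21 CG dinucleotides, against 55% with 5 for *Ucp3* and a median of 52.7% with 7 over 32851 RefSeq promoters of the same length. On either strand, GGGCGG matched 2 times in *Ucp2* and 0 times in *Ucp3* and is held by 35.7% of all these promoters. AGGTCA matched 0 times in *Ucp2* and 2 times in *Ucp3*, with a share of 16.3%. TATAAA (13.6% of promoters), CCAAT (37.4%), CACGTG (7.15%) and TGACGTCA (1.79%) matched neither region, and no match among the 2 motifs found overlapped another.

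Sequence shared between members bears on counts from reads of 36 bases. The longest run common to *Ucp2* and *Ucp3* transcripts was 24 bases and that of *Ucp2* and *Slc25a14* 17 bases, shown here because both are shorter than a read.
Ucp2 and Ucp3: aatgccattgtcaactgtgctgag
Ucp2 and Slc25a14: acctatgagcagctcaa
Words of 36 bases common to any of the 4 members and another family gene, *Ucp1* included, numbered 0, so no read of full length without a mismatch could be divided between them. Reads shortened by trimming were not examined. Of the words of *Ucp2*, 0.237% occurred in other genes on the same strand and 3.99% on the opposite strand, most of the latter in *Dnajb13*.

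The 7 libraries held between 32556304 and 38069151 expected counts, so 3 counts, the limit that a count of 0 allows, came to between 0.0788 and 0.0921 CPM (counting error only). *Lhx6* averaged 72.5 ± 3.55 normalized counts in mutants (SD, n = 3), 13.6% of the 534 ± 58.5 in controls (SD, n = 4), and every mutant library was below every control. At an adjusted p of 0.05 or less in edgeR's quasi-likelihood test, 954 of the 19684 genes differed between genotypes, which is 4.85%, made up of 2.97% higher and 1.87% lower in mutants, while 19.7% had genotypes that did not overlap. Adjusted p-values for other genes measure the spread between these pools. The labels describe the mutant pools as 2 of mixed sex and 1 of females, yet in mutant library 12 *Xist* stood at 11.4 normalized counts and the Y-linked *Ddx3y*, *Uty*, *Kdm5d* and *Eif2s3y* summed to 4275, as in the controls 2 and 3, so no mutant library matched a pool of females. Mutant libraries 5 and 13 had both *Xist* (9572 and 11206) and Y-linked counts (2338 and 2239). Values without library 12 are given beside each member. Since the tissue was whole forebrain, fewer cells of a type and less RNA per cell cannot be told apart.

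*Ucp2* (ENSMUSG00000033685, chr7:100493337-100502020, plus strand, protein coding) was the member with the greatest genotype difference. Controls 2, 3, 10 and 11 had 1051, 953, 1011 and 1075 normalized counts. Mutants 5, 12 and 13 had 2429, 2676 and 2480. All mutants lay well above all controls, and the libraries of each genotype stayed close together, with a coefficient of variation of 5.22% in controls and 5.14% in mutants. The means were 1023 ± 53.3 (SD, n = 4) and 2528 ± 130 (SD, n = 3), a 2.47-fold difference and a log2 fold change of 1.31 (SE 0.0752, 95% interval 1.13 to 1.48). Without library 12 the log2 fold change was 1.26. It was 1.28 among libraries 2, 3 and 5 and 1.30 among libraries 10 to 13, the sets formed by consecutive library numbers. Among controls these sets coincide with sex. *Xist* stood at 2.2 and 6.0 normalized counts in controls 2 and 3, against 21620 and 21311 in controls 10 and 11. The part of sex in values by set, or with the set as covariate, was not tested.

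*Ucp3* (ENSMUSG00000032942, chr7:100472990-100486432, plus strand), the muscle and brown fat member, was detected at low counts. Controls 2, 3, 10 and 11 had 37.3, 62.3, 59.5 and 61.0 normalized counts, and mutants 5, 12 and 13 had 62.3, 40.4 and 80.5. The genotypes overlapped, and the libraries of a genotype differed more than for the other members, with a coefficient of variation of 21.6% in controls and 32.9% in mutants. The log2 fold change was 0.15 (SE 0.284, 95% interval -0.50 to 0.80). The value turned with single libraries, being -0.098 without mutant library 13 and 0.38 without mutant library 12.

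*Slc25a27* (ENSMUSG00000023912, chr17:43641900-43667015, minus strand), which encodes the neuronal carrier UCP4, had 1148, 1265, 1194 and 1184 normalized counts in controls 2, 3, 10 and 11. The mutant values were 1078, 1135 and 1071 in libraries 5, 12 and 13. The groups did not overlap, but the highest mutant and the lowest control were adjacent. Mutants averaged 1095 ± 35.5 (SD, n = 3), 91.4% of the control mean of 1198 ± 49.0 (SD, n = 4), with a log2 fold change of -0.13 (SE 0.0729, 95% interval -0.30 to 0.036). Leaving out library 12 gave -0.16.

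*Slc25a14* (ENSMUSG00000031105, chrX:48623413-48662294, plus strand), which encodes UCP5, had 926, 1343, 1109 and 947 normalized counts in the same controls. The mutants had 785, 864 and 797. Again the groups did not overlap, and control library 3 stood well above the other controls. The mutant mean of 815 ± 42.8 (SD, n = 3) was 75.4% of the control mean of 1081 ± 193 (SD, n = 4), and the log2 fold change was -0.41 (SE 0.136, 95% interval -0.72 to -0.097). It was -0.29 without control library 3, -0.45 without mutant library 12, -0.51 among libraries 2, 3 and 5, and -0.30 among libraries 10 to 13. The gene is X-linked. Controls without appreciable *Xist* (libraries 2 and 3) had 926 and 1343, controls with *Xist* (10 and 11) had 1109 and 947, and the mutant without it (12) had the highest mutant value, 864; the part of sex in the difference was not tested.

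Of the 4 members, *Ucp2* alone was past the adjusted threshold, beside 4.85% of all tested genes, and 3 of 4 had genotypes that did not overlap, beside 19.7%. Since these contrasts chose the family, nothing is read from either count. *Ucp1* (ENSMUSG00000031710, chromosome 8), the thermogenic founder of the family, had at most 5 expected counts in any library and was not tested.

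**Figure D1:**
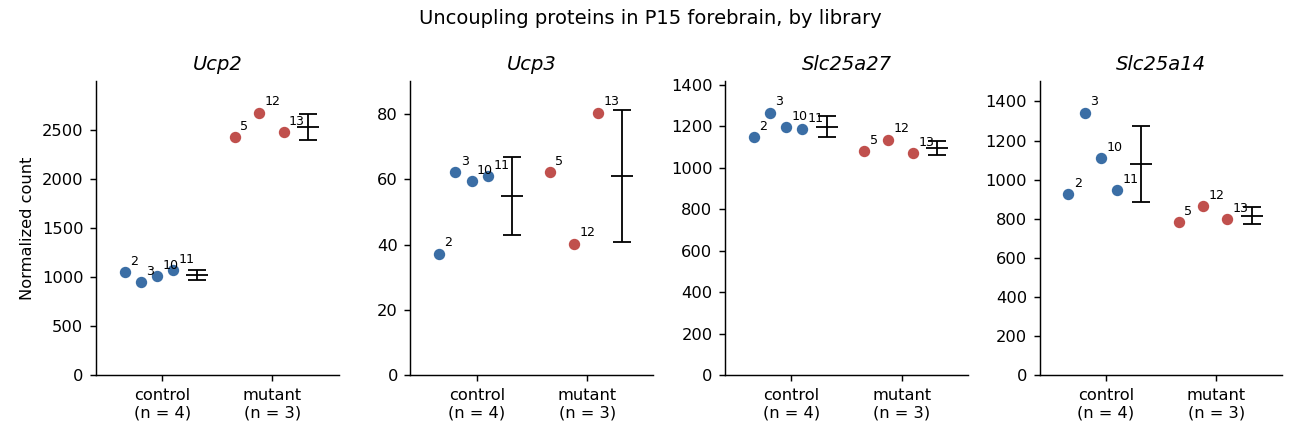
Normalized counts of the 4 uncoupling protein genes (y axis, 1 panel a gene, each from 0) in control and mutant forebrain libraries; points are libraries with their numbers, and black marks give the mean and SD (n = 4 and n = 3). The 3 mutants sit between 2429 and 2676 for *Ucp2*, above all controls, whereas the genotypes overlap for *Ucp3*.

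The genes around the members were compared with them, since *Ucp2* and *Ucp3* adjoin each other and other expressed genes. *C2cd3*, 2837 bp before *Ucp3*, averaged 966 ± 118 normalized counts in controls and 861 ± 60.4 in mutants, a log2 fold change of -0.17 (SE 0.114). *Coa4*, 35050 bp beyond *Ucp2*, averaged 138 ± 19.0 and 127 ± 13.2, a log2 fold change of -0.13 (SE 0.159). Both overlapped between genotypes, so the higher *Ucp2* counts stood between neighbours that did not differ beyond their spread. *Dnajb13* lies on the opposite strand and shares 305 bases with the exons of *Ucp2*, 4.36% of their total length, and the counting is not stated to use strand. It averaged 20.4 ± 3.66 in controls and 18.3 ± 2.55 in mutants. Beside *Slc25a27*, *Tdrd6* (11600 bp away) averaged 45.3 and 42.4, and *Cyp39a1* (409 bp away) 44.8 and 59.8, with a log2 fold change of 0.42 that missed the threshold (adjusted p = 0.337, edgeR). Beside *Slc25a14*, *Zfp280c* (28908 bp away) averaged 539 and 641, and *Gpr119* (5684 bp away) had too few counts to test.

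**Figure D2:**
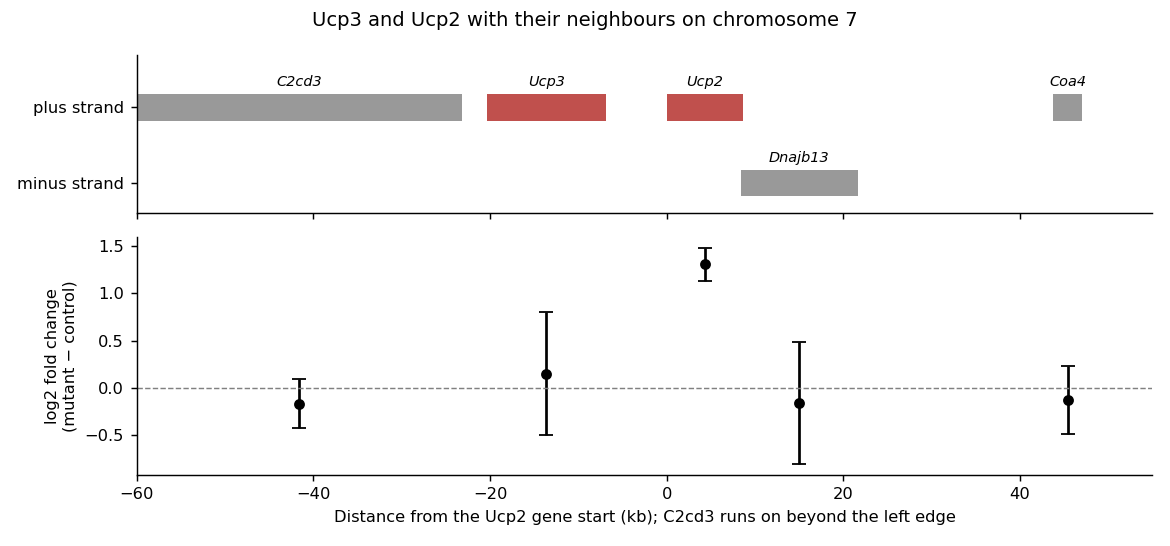
Upper panel, positions and strands of *C2cd3*, *Ucp3*, *Ucp2*, *Dnajb13* and *Coa4* on chromosome 7 against distance from the *Ucp2* start in kb; lower panel, log2 fold change of mutants against controls with its 95% interval. *Ucp2* stands at 1.31, *Ucp3* at 0.15, *C2cd3* at -0.17, *Dnajb13* at -0.16 and *Coa4* at -0.13.

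Levels between genes were compared per length, as TPM computed from the union of exons. In controls, *Slc25a14* and *Slc25a27* came first, at 39.5 ± 7.22 and 38.5 ± 2.12 TPM, followed by *Ucp2* at 12.6 ± 0.838 and *Ucp3* at 1.51 ± 0.291 (SD, n = 4). In mutants, *Slc25a27* stood at 35.8 ± 1.77, *Ucp2* at 31.8 ± 1.31, *Slc25a14* at 30.3 ± 1.33 and *Ucp3* at 1.72 ± 0.562 TPM (SD, n = 3). *Ucp1* ranged from 0.0483 to 0.273 TPM over all libraries. *Ucp2* thus moved from a level above that of 54.1% of tested genes to above that of 74%. It made up 13.8% ± 1.83 of the summed TPM of the 4 members in controls and 31.9% ± 0.388 in mutants. By exon union, the summed TPM itself overlapped, at 89.4, 105, 89.1 and 85.1 in controls 2, 3, 10 and 11 and 103, 101 and 95.2 in mutants 5, 12 and 13. By longest transcript it averaged 96.0 ± 8.25 in controls (SD, n = 4) and 113 ± 3.8 in mutants (SD, n = 3).

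Neighbours in the order by mean TPM over all libraries (*Slc25a27*, *Slc25a14*, *Ucp2*, *Ucp3*) were compared within libraries by an exact two-sided sign-flip permutation test over n = 7, with adjustment over 3 pairs and a smallest possible p of 0.0156. *Ucp2* exceeded *Ucp3* in 7 of 7 libraries, by a pooled mean log2 ratio of 3.6 (exact p = 0.0156, the smallest possible, adjusted exact p = 0.0469). That ratio ran from 2.78 to 3.66 in controls (mean 3.09) and from 3.79 to 4.89 in mutants (mean 4.27). The pooled mean therefore depends on the number of libraries of each genotype. *Slc25a14* exceeded *Ucp2* in 4 of 7 libraries, those being the controls, where the log2 ratio ran from 1.38 to 2.06, whereas in the mutants it ran from -0.073 to -0.067 (pooled mean 0.90, adjusted exact p = 0.188). *Slc25a27* exceeded *Slc25a14* in 5 of 7 libraries, by 0.091 in the mean (adjusted exact p = 0.266), and over all libraries these neighbours did not differ beyond their spread. Within genotypes the log2 ratio ran from -0.27 to 0.14 in controls and from 0.21 to 0.27 in mutants. With the longest annotated transcript as the length, that ratio turned to -0.25 (adjusted exact p = 0.0234). On that scale *Ucp2* had 18.9 TPM in controls and 47.5 in mutants, above the 32.8 of *Slc25a14* and the 30.6 of *Slc25a27* in mutants.

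**Figure D3:**
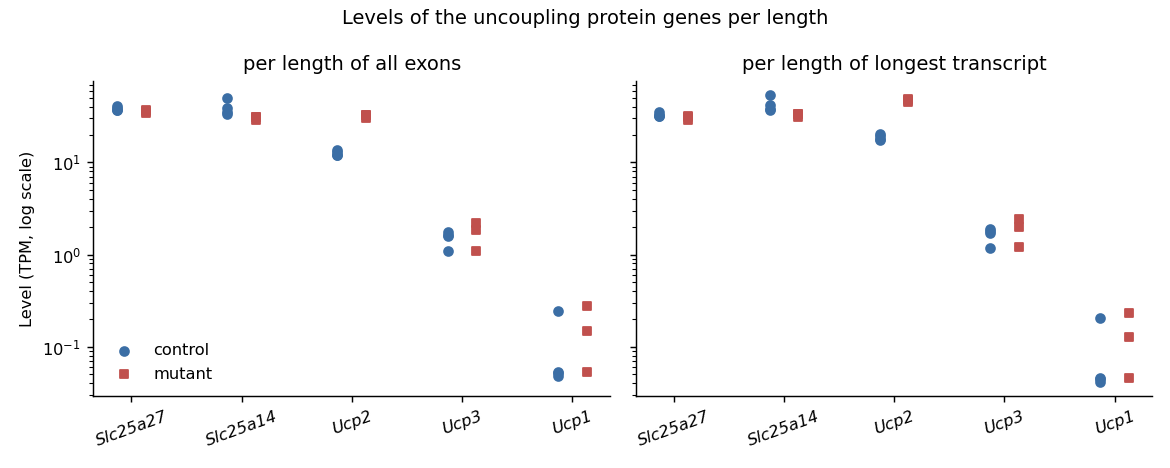
Levels of the 4 members and *Ucp1* in TPM (log axis) in control and mutant libraries, with length taken as the exon union (left) or the longest transcript (right); each point is a library. *Ucp2* mutants sit at 30.3 TPM or above by exon union, beside *Slc25a14* and *Slc25a27*, while *Ucp2* controls reach at most 13.7.

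The genes of pathways around uncoupling were counted beside the share of all tested genes called, which was 4.85% with edgeR, 8.79% with DESeq2, 4.89% with limma-voom, and 11.2% with edgeR and the set of consecutive library numbers as covariate. Over 96 tested pathway genes, edgeR called 2, DESeq2 6 and the fit with the covariate 7. Among the other mitochondrial carriers, 1 of 42 tested genes was higher and 1 lower in mutants, the list's median log2 fold change was 0.018, and that over all tested genes was -0.013. *Slc25a10*, the dicarboxylate carrier, was higher, at 593 ± 12.4 normalized counts in controls and 760 ± 21.0 in mutants (log2 fold change 0.36, SE 0.0817, adjusted p = 0.0447, edgeR). *Slc25a37*, mitoferrin of the iron supply for haem, was lower, at 1194 ± 44.4 and 812 ± 112 (log2 fold change -0.56, SE 0.104, adjusted p = 0.020, edgeR). Both calls depended on single libraries. That of *Slc25a10* was lost on leaving out any of the 7, and that of *Slc25a37* on leaving out control library 10 or 11 or mutant library 12 or 13, with 0 carriers then called.

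None of 18 regulators of uncoupling passed edgeR's test (median -0.11), with 6 at an unadjusted p under 0.05, 2 called by DESeq2 and 0 by limma-voom. The 2 were *Foxo3*, a forkhead factor of stress responses, with 3689 ± 404 normalized counts in controls and 2845 ± 133 in mutants (log2 fold change -0.38, adjusted p = 0.0715, edgeR), and *Srebf1*, a regulator of lipid synthesis. *Srebf1* averaged 1654 ± 233 and 2247 ± 284 (log2 fold change 0.44, adjusted p = 0.103, edgeR). *Ppargc1a*, the coactivator of mitochondrial biogenesis, had 1848 ± 117 and 1762 ± 109 normalized counts in controls and mutants. Of 15 antioxidant genes, edgeR called 0 (median 0.032, 3 at an unadjusted p under 0.05), DESeq2 1 and limma-voom 0. *Nqo1*, a quinone reductase, averaged 68.1 ± 16.7 and 120 ± 8.65 (log2 fold change 0.82, adjusted p = 0.0683, edgeR). Mitochondrial superoxide dismutase, *Sod2*, averaged 5678 ± 317 and 4734 ± 353 (log2 fold change -0.26, adjusted p = 0.138, edgeR). Of 17 genes of fatty acid oxidation, 0 were called by edgeR, DESeq2 or limma-voom, with 1 at an unadjusted p under 0.05 and a median of -0.0084. Of the 6 tested genes among 9 of the brown fat programme, edgeR and limma-voom called 0 and DESeq2 1, with 2 at an unadjusted p under 0.05. In that programme *Cox7a1*, a muscle-type subunit of cytochrome oxidase, averaged 21.5 ± 6.38 and 49.5 ± 13.1 (log2 fold change 1.2, adjusted p = 0.0594, edgeR).

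Markers of the cell types in forebrain were read beside *Ucp2*, which is expressed in more than a single cell type. For microglia, 0 of 11 tested markers were called by edgeR, DESeq2 or limma-voom (2 at an unadjusted p under 0.05), the median was -0.055, and the summed normalized counts were 15734 to 16154 in controls and 13724 to 15581 in mutants, ranges that did not overlap. The marker *Itgam* lay near 0 in both groups and was not tested. For reactive astrocytes, 7 of 11 were higher and 0 lower, with a median of 1.10 and summed counts of 10303 to 11764 in controls and 31443 to 36542 in mutants. The 7 were *Gfap*, *Vim*, *Serpina3n*, *C4b*, *Cd44*, *Osmr* and *Timp1*. *Gfap*, the intermediate filament of astrocytes, averaged 6537 ± 490 in controls and 25196 ± 2556 in mutants. Of 10 general astrocyte markers 1, again *Gfap*, was higher by edgeR and limma-voom and 3 by DESeq2, with 4 at an unadjusted p under 0.05 (median 0.21, summed 218519 to 314373 and 343004 to 399739). The part of reactive astrocytes in the *Ucp2* difference was not tested.

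Of 8 endothelial markers, edgeR and limma-voom called 0, DESeq2 called 2 and 4 had an unadjusted p under 0.05 (median 0.32, summed 8642 to 9812 in controls and 10886 to 11642 in mutants). Oligodendrocyte markers were lower in 3 of 7 (median -0.51), and choroid plexus markers in 0 of 8 by edgeR and limma-voom and 1 by DESeq2 (median -0.59, 2 at an unadjusted p under 0.05). Blood markers were called in 0 of 5 by edgeR, DESeq2 and limma-voom, with 0 at an unadjusted p under 0.05 and a median of -0.63. With the set of consecutive library numbers as covariate, 5 of 5 blood and 7 of 7 oligodendrocyte markers were called lower and 4 of 8 endothelial markers higher. Among controls this covariate coincides with sex, and the part of sex in these calls was not tested. For skeletal muscle, the tissue of *Ucp3*, the summed counts overlapped at 380.6 to 516.3 and 433 to 513.2, and of 6 tested markers *Tnnc2* was higher and *Myh4* lower. Excitatory neuron markers were higher in 1 of 8 by edgeR, with 2 of 8 above 0 and a median of -0.095. DESeq2 and the fit with the covariate each called 1 higher and 1 lower. Of 8 interneuron markers, *Lhx6* among them, 2 were higher and 3 lower. Several of these counts rested on single libraries. Oligodendrocyte calls numbered 1 without mutant library 5 and 0 without mutant library 13, muscle calls 1 without mutant library 5 and 0 without 12 or 13, and excitatory neuron calls 0 without control library 10 or 11 or any mutant library. Without control library 3, 0 excitatory neuron markers were called higher and 1 lower. The part of these cell types in the members' values was not tested.

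**Figure D4:**
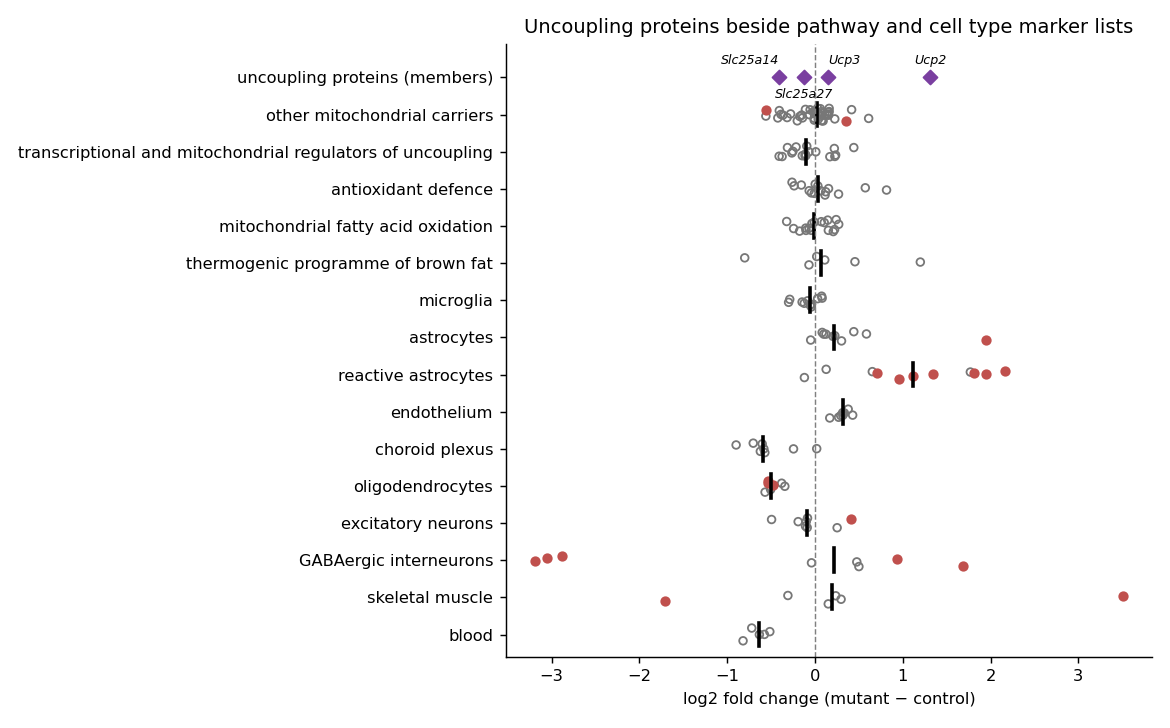
Log2 fold change, mutants against controls, of each tested gene in the 4 members and in the pathway and cell type marker lists; points are genes (diamonds for members), filled red in the lists where edgeR's adjusted p was 0.05 or less, and bars are list medians. *Ucp2* lies at 1.31. Of the 11 reactive astrocyte markers tested, 10 lie to the right of 0 (median 1.10), while *Lcn2* lies at -0.12. To the right of 0 also lie 9 of 10 general astrocyte markers and 8 of 8 endothelial markers.

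Genes whose log2 CPM followed each member over the 7 libraries were ranked by Pearson's r among 15766 genes with a mean of at least 1 CPM, as a description that shares libraries and genotype. The closest to *Ucp2* were *Fam20a* (r = 0.997), *Slc25a10* (0.994), *Cck* (0.994), *Nrap* (0.994) and *Sema3c* (0.993), and all 5 were called higher in mutants. After each genotype's mean was subtracted, the closest were *Scrt1* (0.996), *Sez6*, *Cacng8*, *Gm28192* and *Neurl4* (0.983), none of which was called. For *Ucp3* they were *Drd5* (0.957), *Gm43887*, *Col4a3bp*, *Zdhhc6* and *8430429K09Rik* (0.923). Genes close to *Slc25a27* included *Tango2* (0.993), *Dand5* and *Umad1* (0.977), and *Slc25a14* was closest to *Ralyl* (0.988), *Hspa4*, *Schip1* (ENSMUSG00000027777), *Serpinb6a* and *Tmem87a* (0.979). None of those named for these 3 members was called between genotypes, although another gene with the symbol *Schip1* (ENSMUSG00000102422) was lower in mutants (log2 fold change -0.99, adjusted p = 0.0112, edgeR).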

How the data were processed

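Forebrain RNA was sequenced in 4 control and 3 mutant pools. Per the submitters' processing notes, reads of 36 bp were trimmed with cutadapt 1.9.1 and aligned with Bowtie2 2.2.9 to GRCm38 (Ensembl release 84), and the authors deposited expected counts per gene from RSEM 1.2.31, without normalization. RSEM divides a read among the genes it matches, so counts are less certain where a gene has close copies. The authors also deposited exon positions, used here for lengths and overlaps, and a DESeq2 comparison of fold changes and p-values, of which only gene symbols were read. The labels give 0.5 µg of RNA per library.

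Expected counts were rounded. A gene was kept if 3 or more libraries had 10 or more counts, and scaling was by TMM (factors 0.976 to 1.03) before testing with edgeR 4.0.16 (R 4.3.3), quasi-likelihood, without covariates, with Benjamini-Hochberg adjustment over 19684 genes and a threshold of 0.05. Normalized counts are counts over effective library size, relative to its mean. The fit was tested on simulated data, and the outcome is not reported here. TPM was computed from exon union lengths. Alternatives were DESeq2 1.42.0, limma 3.58.1 (voom), other scalings and filters, unrounded counts, and leaving out each library. Column names give genotype and library number only, and 0 columns were unused. No library duplicated another, with a chi-square over its degrees of freedom of 9.96 to 70.8 for pairs within a genotype. The members, the 15 lists and the sets of consecutive library numbers were chosen with earlier results of these data known. Genes named were the members, *Ucp1*, *Lhx6*, nearest protein-coding neighbours, up to 5 called genes in each direction per list by smallest p with up to 5 others, and the 5 genes most alike each member, of which some for *Slc25a27* are not reported here; *Osmr* and *Timp1*, beyond the first 5 of their list, were named after their values were seen to complete the count.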

Additional observations from a re-analysis of the deposited data

Results flagged for a closer look

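In 3 of 13 genes examined, a control library stood apart from the other 3 by Dixon's ratio, the gap to the nearest library over the whole range, which exceeded Dixon's critical value for 4 samples at the 95% level. For *Ucp3*, control library 2 was the lowest, at 37.3 normalized counts, with a ratio of 0.889. For *Ucp1*, the same library was the highest, at 4.39, with a ratio of 0.983, and for *Gpr119* control library 10 was the highest, at 1.92, with a ratio of 1. The latter 2 genes rest on at most 5 expected counts per library. Chance gives such a ratio in about 1 in 20 groups of normally distributed values, a rate that does not apply to the few counts of these 2 genes.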

How the results depend on the processing

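The log2 fold change of each of the 4 members moved by less than the spread between libraries under all 17 alternatives, from 1.26 to 1.34 for *Ucp2*. Among these, the values within sets of consecutive library numbers were not refits. They were differences of mean log2 normalized counts with 0.5 added, and libraries 2, 3 and 5 hold mutant library 5 alone. The order of *Ucp2* above *Ucp3* held its direction. On leaving out each library the log2 ratio ran from 3.38 to 3.73, with an adjusted exact p of 0.0938. With 6 libraries, a lower adjusted value would need another pair to reach the smallest possible p as well. *Slc25a27* against *Slc25a14* turned from 0.091 to -0.25 with the longest transcript as length. Genes called between genotypes numbered 954 (585 higher, 369 lower), 1731 (1002 and 729) with DESeq2, 2205 (1213 and 992) with the set of consecutive library numbers as covariate, and from 302 without mutant library 13 to 971 without control library 3 on leaving out a library, with 513 and 589 without control libraries 10 and 11 and 458 and 387 without mutant libraries 5 and 12. Pathway genes called numbered 2, against 6 with DESeq2, 7 with the covariate, 1 without a filter, and 0 to 2 on leaving out a library. Marker genes called numbered 18, against 38 with the covariate and 9 (without mutant library 13) to 20 on leaving out a library, with 5 to 7 of the 10 or 11 reactive astrocyte markers tested called in each of the latter. Among controls the covariate coincides with sex, and the cause of these moves was not tested. No paired analysis was possible because the columns carry library numbers and not the replicate numbers of the labels. *Ucp3*, at 34 to 85 counts per library, had a standard error of 0.284, against 0.0752 for *Ucp2*.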
